A study of Mus musculus with 22 samples.

Results

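Ucp1, the uncoupling protein by which brown and beige fat cells turn fuel into heat, was measured in the mammary tissue of 22 mice, and the 6 mice ranked highest were compared with the 6 ranked lowest. The mice were ranked by Ucp1, and ties were broken by Cidea, a lipid droplet protein that is abundant in brown and beige fat and is also made in other fat cells. These 12 of 22 mice were chosen by a measured value and not by a treatment, so Ucp1 and Cidea only describe the groups and were not tested. The remaining 10 mice lay between them in rank.

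All the mice were females of the inbred strain C57BL/6J, 7 to 8 weeks old, and all carried EO771, a mammary cancer line of the same strain that had been made to express firefly luciferase, of which 100000 cells were placed in a mammary fat pad on the left side. For 2 weeks before engraftment the cages held a running wheel or, for sedentary controls, its hub alone, and the mice received liposomes 24 hours before the cells and again with them. The liposomes held PBS, a buffer, or clodronate, a drug that kills phagocytes that take it up. The fat pad was collected 24 hours after engraftment. Mice are named here by activity, liposome and replicate number, as in hub PBS 2. The replicate number is the order of a mouse within its treatment group. The sample titles number the mice serially across the groups, so hub and wheel mice share no number there. There were 6 hub and 6 wheel mice with PBS, and 5 hub and 5 wheel mice with clodronate. The RNA comes from the whole pad, in which fat cells, epithelium, vessels, immune cells and the engrafted cells are mixed, so that fewer cells of a type and less RNA per cell cannot be told apart.

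Expression is given in CPM, reads scaled to a common library size, and every value below 1 CPM had been raised to 1, a floor that hides up to 13 to 20 reads per gene depending on the mouse. Libraries held 13314092 to 20484578 reads in the high mice and 14519134 to 17358700 in the low mice. The reads are 3′ ends of transcripts, so that a longer gene does not give more of them. Differences are high minus low on the log2(CPM + 1) scale with their standard errors (SE), a scale on which genes near the floor appear to change less than they did. Tests were limma fits across 15137 genes with Benjamini-Hochberg adjustment, and a gene is said to be called at an adjusted p under 0.05.

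Fat cells that make heat carry many mitochondria, burn fatty acids and glucose in them, and are switched on by noradrenaline through beta-adrenergic receptors. White fat cells mainly store triglyceride. In both, fatty acids can be made from glucose: mitochondrial citrate is exported to the cytosol, cut to acetyl-CoA by Acly, and built into fatty acids by Acaca and Fasn.

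Ucp1 was above the floor in 4 of 22 mice. It reached 8.16 CPM in hub PBS 2, 7.27 CPM in hub clodronate 1, 4.88 CPM in wheel PBS 3 and 3.58 CPM in hub PBS 1, which correspond to 134, 149, 65 and 49 reads. In the other 18 mice it was at the floor, so the last 2 places of the high group and all 6 of the low group were given by Cidea. Ucp1 (chromosome 8, 83290352 to 83298452, GRCm38) was therefore at the floor in 2 of the 6 high mice, and the split below rank 4 is a split by Cidea. Cidea was 43.9 to 63.6 CPM in the high mice (median 51.0), 21.3 to 47.4 CPM in the 10 mice between, and 13.4 to 20.7 CPM in the low mice (median 16.8). The group limits lay between close values. Wheel PBS 2 was the last of the high mice with 48.5 CPM of Cidea and hub PBS 6 the next below with 47.4 CPM, while wheel PBS 4 was the first of the low mice with 20.7 CPM and wheel clodronate 5 the next above with 21.3 CPM. Ucp1 was too sparse to pass the filter of 5 mice above the floor.

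**Figure D1:**
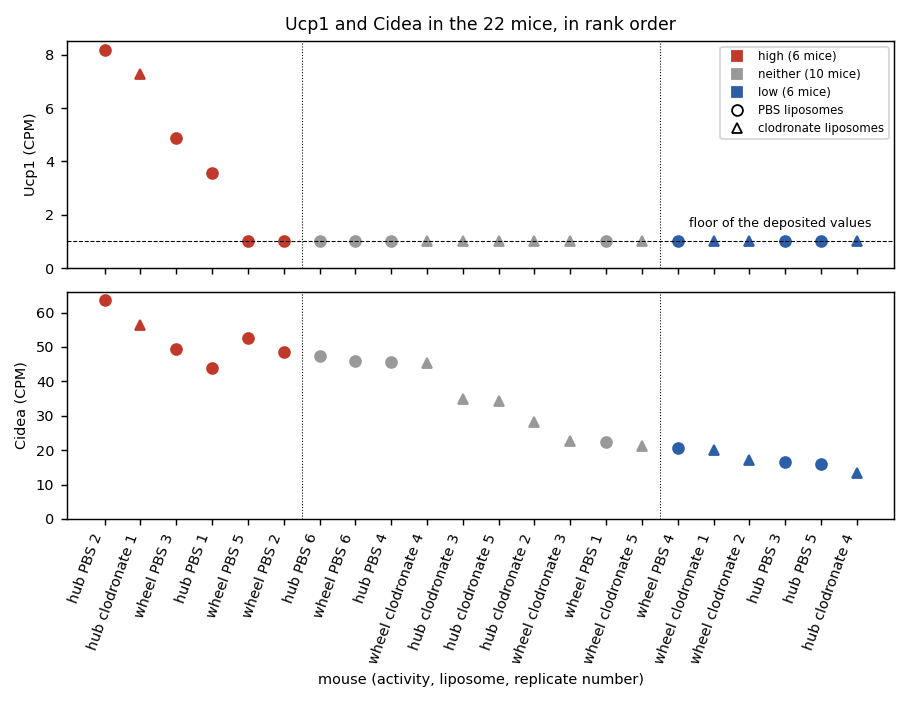
Ucp1 (top) and Cidea (bottom) in CPM for each of the 22 mice in rank order, with the high mice in red, the low mice in blue, the mice in neither group in grey, and the liposome shown by the symbol. Ucp1 leaves the floor of 1 CPM in the first 4 mice alone, and Cidea runs from 63.6 CPM down to 13.4 CPM.

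Activity was balanced between the groups and liposome was not. The high group held 3 hub and 3 wheel mice, and so did the low group. Of the high mice 5 had PBS and 1 had clodronate (hub clodronate 1), whereas the low mice were 3 with PBS and 3 with clodronate. By treatment group, 2 hub PBS, 3 wheel PBS, 1 hub clodronate and 0 wheel clodronate mice were high, and 2 hub PBS, 1 wheel PBS, 1 hub clodronate and 2 wheel clodronate mice were low. Cidea was 16.0 to 63.6 CPM in the 12 mice with PBS (median 45.7) and 13.4 to 56.3 CPM in the 10 with clodronate (median 25.4), ranges that overlap. Because liposome moves with the groups, its own values are given beside many of the results below. A gene given without them may still differ by liposome.

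No gene was called between the high and low mice. Of 15137 genes 0 (0%) had an adjusted p under 0.05, and the lowest adjusted p was 0.369. At an unadjusted p under 0.05 there were 725 genes, 356 higher in the high mice (2.35% of all) and 369 lower (2.44%). All 6 high mice lay above all 6 low mice for 28 genes (0.185%) and below them for 7 genes (0.0462%). The mean was higher in the high mice for 49.3% of genes, and the median difference was near 0. What follows describes the sizes of differences and the levels in single mice, none of which passed the test across genes.

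Fatty acid synthesis was the metabolic group whose genes stood highest in the high mice. All 14 of its 14 tested genes had a higher mean there, with a median difference of 1.16 and a range of 0.05 to 1.62, and 11 of 14 had an unadjusted p under 0.05 against 2.35% of all genes. None was called, and in each of the 14 genes at least 1 low mouse overlapped the high mice. Of the 15 genes listed, Pklr, a pyruvate kinase, was at the floor in every mouse and was not tested.

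Acly, Acss2 and Elovl6 had the largest differences of the list. Acly, which makes cytosolic acetyl-CoA from citrate (chromosome 11, 100476353 to 100528000), was at 1161, 687, 1098, 1783, 848 and 374 CPM in the high mice, from the first rank to the sixth. In the low mice, from wheel PBS 4 to hub clodronate 4, it was at 981, 262, 132, 618, 479 and 56.2 CPM, and all further lists of 6 values follow this order. The difference was 1.62 ± 0.58 (SE), and the groups overlapped. The 3 low mice with PBS lay inside the range of the high mice, and hub clodronate 1, wheel PBS 5 and wheel PBS 2 lay inside that of the low mice. Acss2, which makes acetyl-CoA from acetate, was at 102 to 355 CPM in the high mice (median 186) and 26.7 to 177 CPM in the low mice (median 61.6), a difference of 1.53 ± 0.43 (SE). Elovl6, which lengthens the 16-carbon product of the synthase, was at 325 to 651 CPM against 29.7 to 484 CPM, a difference of 1.48 ± 0.48 (SE).

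The synthase and its citrate supply lie outside the 3 genes that the rule named for this list and are given because they complete the pathway. Fasn, the fatty acid synthase (chromosome 11, 120805846 to 120824547), was at 3956, 5571, 4377, 4980, 4108 and 3981 CPM in the high mice. In the low mice it was at 4077, 1909, 1601, 2588, 2450 and 517 CPM. Only wheel PBS 4 reached the range of the high mice, and the difference was 1.26 ± 0.38 (SE). Thrsp, a lipogenic regulator of fat and liver, was at 915 to 1995 CPM against 378 to 1032 CPM, and Slc25a1, the mitochondrial citrate exporter, at 468 to 729 CPM against 133 to 610 CPM. The differences were smallest for Srebf1, a transcription factor of lipid synthesis (0.19 ± 0.23, SE), and for Elovl5, which lengthens polyunsaturated fatty acids (0.05 ± 0.20, SE). Scd1, the main desaturase of fat, was abundant in both groups, at 4117 to 6944 CPM and 3525 to 5914 CPM.

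**Figure D2:**
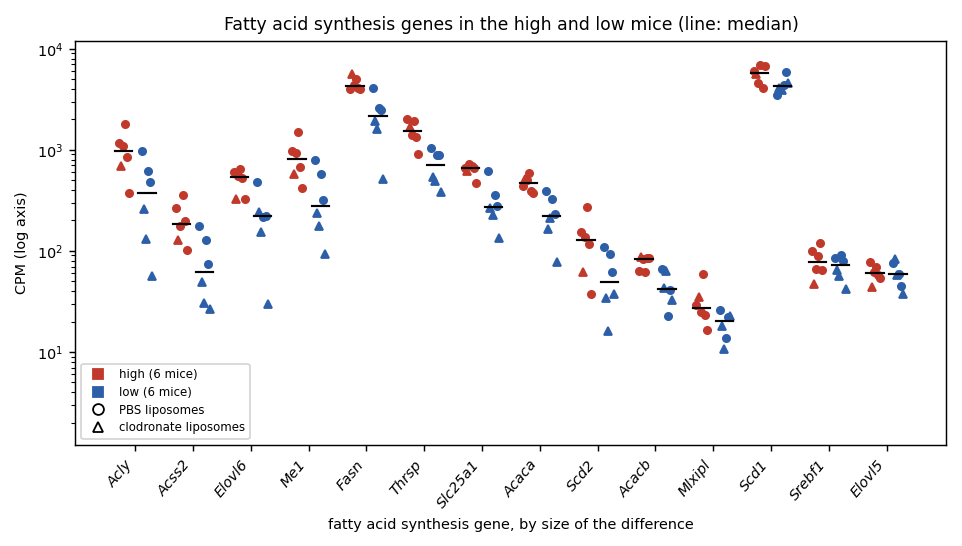
CPM (log axis) of the 14 fatty acid synthesis genes in each of the 6 high (red) and 6 low (blue) mice, ordered by the size of the difference, with the liposome shown by the symbol and the median by a line. Every median is higher in the high mice, and in 12 of the 14 genes the lowest of the low mice is a mouse with clodronate (triangle).

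The 250 bases before the start of 3 of these genes are shown because the genes stood high together and their starts are the same in RefSeq and GENCODE. They were chosen after the values were seen, come from RefSeq (GRCm38.p6), and run 5′ to 3′ on the strand of the gene, which is the minus strand for all 3. Capitals mark CCAAT, the nuclear receptor element AGGTCA and the E-box CACGTG on either strand. The windows are chr11:100528001-100528250 for Acly, chr11:120824548-120824797 for Fasn and chr16:17928220-17928469 for Slc25a1.
Acly: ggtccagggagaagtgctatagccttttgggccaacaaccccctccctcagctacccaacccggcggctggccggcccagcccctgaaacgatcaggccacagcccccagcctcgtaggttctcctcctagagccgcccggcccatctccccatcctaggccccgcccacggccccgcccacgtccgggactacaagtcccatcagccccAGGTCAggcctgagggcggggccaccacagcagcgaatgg
Fasn: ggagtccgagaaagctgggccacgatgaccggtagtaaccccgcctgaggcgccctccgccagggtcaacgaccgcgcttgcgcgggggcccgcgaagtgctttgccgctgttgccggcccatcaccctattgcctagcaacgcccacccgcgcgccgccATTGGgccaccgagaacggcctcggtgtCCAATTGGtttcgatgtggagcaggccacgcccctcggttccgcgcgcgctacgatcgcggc
Slc25a1: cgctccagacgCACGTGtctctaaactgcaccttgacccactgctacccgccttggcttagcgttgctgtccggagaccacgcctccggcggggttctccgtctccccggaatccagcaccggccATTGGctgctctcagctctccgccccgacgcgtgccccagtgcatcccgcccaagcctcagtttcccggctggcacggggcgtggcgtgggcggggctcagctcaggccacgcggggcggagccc
RefSeq windows were found for 12 of the 14 tested genes, 16 windows in all. CCAAT was in 10 of the 16 (62.5%) and in 33.8% of 32851 windows of all genes, and CACGTG in 3 (18.8%) and 6.02%. AGGTCA was in 2 of the 16 (12.5%) and 14% of all, GGGCGG in 7 (43.8%) and 32.7%, and CACCCCAC in 0 and 2.58%. These are matches of letters on either strand, which may overlap, and they describe the windows alone.

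Liposome moved with this result. In the fit of all 22 mice, 31 genes (0.205%) were called between clodronate and PBS, all 31 lower with clodronate. Of all 15137 genes, 6456 had a higher mean with clodronate, and the median difference was -0.042. All 14 fatty acid synthesis genes had a lower mean with clodronate, with a median difference of -1.19. Scd2, a desaturase, was the gene of this list called there (-1.43 ± 0.26, SE, adjusted p = 0.0167 by limma). The score of the list, its mean log2(CPM + 1) in a mouse, was 8.73, 8.32, 8.57, 9.03, 8.49 and 7.99 in the high mice. It was 8.42, 7.44, 7.08, 7.91, 7.76 and 6.49 in the low mice. The 3 low mice with clodronate (wheel clodronate 1, wheel clodronate 2 and hub clodronate 4) had the 3 lowest of these scores, and 5 of the 6 low mice lay below every high mouse.

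The median difference of the list was 0.94 with activity and liposome as covariates. Among PBS mice alone, 5 high and 3 low, it was 0.53, with 14 of 14 genes higher and 5 of 14 at an unadjusted p under 0.05, and the high mice had scores of 7.99 to 9.03 against 7.76 to 8.42. For Acly the difference among PBS mice was 0.50. Hub clodronate 1, the only high mouse with clodronate, had a score of 8.32, above the other 9 mice with clodronate, whose highest was 8.00. Leaving this mouse out of the fit of all 22 moved the genes called by liposome from 31 to 146.

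Activity was shared evenly between the groups. Between wheel and hub mice 0 of 15137 genes (0%) were called by limma and 1224 had an unadjusted p under 0.05, and the median difference of the list was 0.25, with 11 of 14 genes higher with the wheel.

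Brown and beige fat genes differed in both directions. Of 49 genes listed, 44 were tested, 27 had a higher mean in the high mice and 17 a lower one, and the median difference was 0.14, or 0.05 among PBS mice alone with 23 of 44 higher. Unadjusted p was under 0.05 for 5 higher and 1 lower gene of the 44, against 2.35% and 2.44% of all genes, and none was called. This list holds regulators, mitochondrial enzymes and surface proteins that mark these cells, and several of them are also muscle genes. With the muscle score as a covariate 30 of 44 were higher (median 0.15), 7 of them at an unadjusted p under 0.05 by limma. With muscle, lymphocyte and epithelium scores 31 of 44 were higher (median 0.26), again 7 of them at that p. None was called in either fit.

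Ppara and Kcnk3 were the members with no overlap between the groups, 2 of 44, against 0.185% of all genes with every high mouse above every low mouse. Ppara, a nuclear receptor that turns on fatty acid burning (chromosome 15, 85734983 to 85802819), was at 11.03, 16.9, 19.2, 12.5, 17.2 and 17.7 CPM in the high mice. In the low mice it was at 10.2, 9.37, 8.12, 5.63, 10.8 and 7.85 CPM. The highest low mouse, hub PBS 5, and the lowest high mouse, hub PBS 2, were close, and the difference was 0.80 ± 0.23 (SE, adjusted p = 0.870 by limma). It was 0.76 among PBS mice alone. The lowest and highest Ppara of all 22 mice lay in neither group. Hub PBS 6, just below the high mice in rank, had 5.07 CPM, and wheel PBS 1, near the low mice in rank, had 20.9 CPM. Kcnk3, a potassium channel of brown fat cells and other tissues, was at 54.2 to 93.3 CPM against 22.4 to 46.7 CPM, a difference of 0.89 ± 0.19 (SE, adjusted p = 0.470 by limma). Between clodronate and PBS Kcnk3 differed by -0.65 ± 0.22 and Ppara by -0.10 ± 0.22 (both SE), and neither was called.

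Otop1, a proton channel found in brown fat, and Ntrk3, a neurotrophin receptor, had the largest differences among the list genes higher in the high mice. They are given for that reason, after their values were seen, as is Kcnk3. The largest difference in size had the other sign, that of Cox6a2 (-1.91), described below. Otop1 was at 10.4, 2.73, 7.06, 12.7, 3.15 and 1.33 CPM in the high mice and at 1.69, 1, 1, 1, 1.56 and 1.73 CPM in the low mice. The 3 highest values of the 22 mice were those of hub PBS 1, hub PBS 2 and wheel PBS 3. Wheel clodronate 4 and wheel PBS 6, which were in neither group, followed with 6.56 and 5.56 CPM. The difference of Otop1 between the groups was 1.37 ± 0.39 (SE). Ntrk3 was at 12.7 to 22.5 CPM in the high mice and 1 to 17.8 CPM in the low mice, where wheel PBS 4 was the highest.

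The regulators and effectors that define heat-making fat cells overlapped. Ppargc1a, the coactivator that drives the building of mitochondria, was at 7.29 to 10.7 CPM (median 8.37) in the high mice and 1.38 to 12.2 CPM (median 4.51) in the low mice, a difference of 0.79 ± 0.39 (SE). Wheel clodronate 2 and hub clodronate 4 were the low mice inside or above the high range. Prdm16, which sets brown fat identity, was at 8.40 to 15.9 CPM against 6.33 to 14.2 CPM. Cox8b, a subunit of cytochrome oxidase in brown fat and muscle, was at 25.0 to 62.3 CPM against 18.7 to 64.2 CPM. Dio2, which makes active thyroid hormone, was at 1 to 3.76 CPM against 1 to 2.11 CPM, with 2 mice of each group at the floor. Elovl3, which makes very long fatty acids in active brown fat, was at 1 to 10.5 CPM against 1 to 9.37 CPM. The mean differences of Cox7a1 (-0.01 ± 0.58), Plin5 (-0.04 ± 0.37) and Adrb3 (0.03 ± 0.21, all SE) were far smaller than their errors, and their signs changed between alternatives. These are another cytochrome oxidase subunit, a droplet protein that ties droplets to mitochondria, and the main beta-adrenergic receptor of fat.

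At the lower end of the list was Cox6a2, a cytochrome oxidase subunit of muscle and brown fat, at 1 to 6.46 CPM in the high mice and 1 to 200.5 CPM in the low mice, a difference of -1.91 ± 0.92 (SE). Skeletal muscle genes, described below, had the same direction. Slc6a8, the creatine transporter, was the 1 lower gene with an unadjusted p under 0.05 (-0.81 ± 0.31, SE). Cpt1b, Bmp8b and Fgf21 were listed at the floor in all 22 mice, where the end of the Cpt1b transcript matches that of Gm44502 over 100% of the length compared, so that its reads may not have been counted. In addition, Slc27a2 and Zic1 were above it in 2 and 1 mice.

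**Figure D3:**
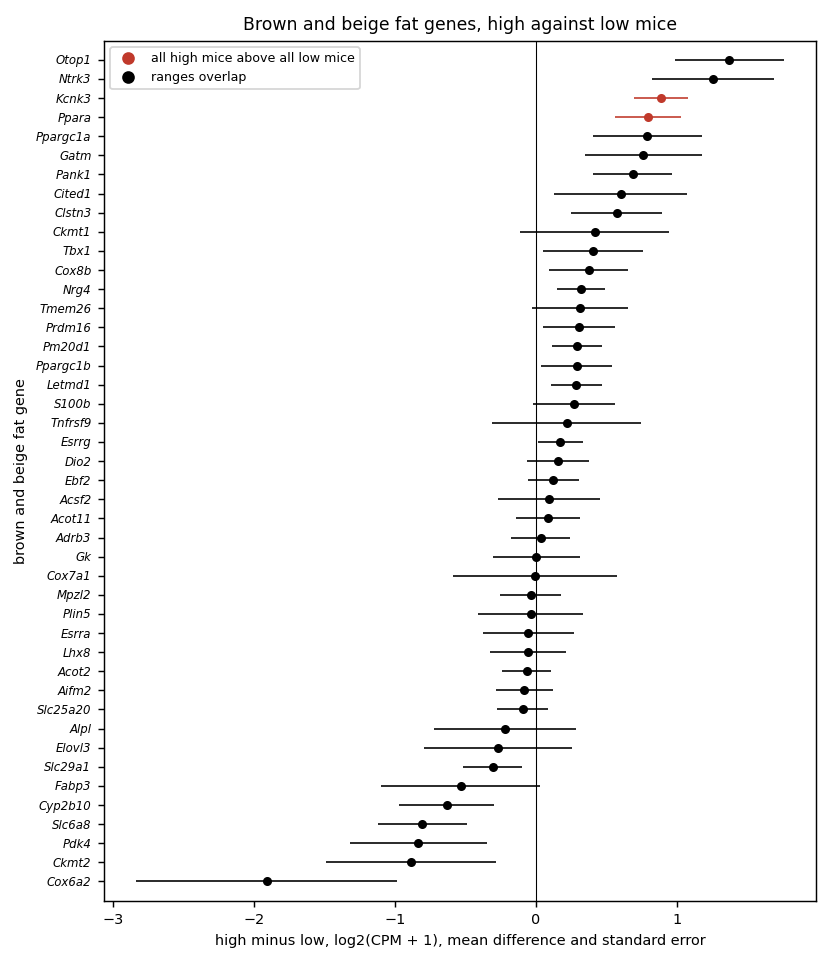
Mean difference with its standard error, high minus low in log2(CPM + 1), of the 44 brown and beige fat genes tested in 6 high and 6 low mice. Ppara and Kcnk3, in red, are the genes with all high mice above all low mice, and the points spread on both sides of 0 from -1.91 (Cox6a2) to 1.37 (Otop1).

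Mitochondrial enzymes were higher on average in the high mice by small amounts. For comparison with the counts that follow, 49.3% of all genes had a higher mean and 2.35% were higher at an unadjusted p under 0.05. Of the citric acid cycle and its entry enzymes 18 of 19 had a higher mean, with a median difference of 0.26 and 8 of 19 at an unadjusted p under 0.05. Among PBS mice alone these were 14 of 19, 0.11 and 3 of 19. Pcx, pyruvate carboxylase, which refills the cycle and feeds citrate export, was at 295 to 481 CPM in the high mice and 105 to 278 CPM in the low mice with no overlap (0.84 ± 0.21, SE, and 0.50 among PBS mice alone). Pdha1 (0.69 ± 0.16) and Pdhb (0.84 ± 0.29, both SE), subunits of pyruvate dehydrogenase, overlapped in range, and Pdhb was at 0.25 among PBS mice alone. Pdhb was also called lower with clodronate (-0.96 ± 0.20, SE, adjusted p = 0.0430 by limma), and all 19 genes had a lower mean with clodronate (median -0.31). Pcx differed by -0.89 ± 0.26 (SE) between clodronate and PBS and was not called. Of oxidative phosphorylation 39 of 47 had a higher mean, with a median of 0.18 and 13 of 47 at an unadjusted p under 0.05, and among PBS mice alone these were 36 of 47, 0.12 and 4 of 47. The leading members were Cycs (0.59 ± 0.24) and Cyc1 (0.57 ± 0.16), both cytochromes of electron transfer, and Cox5a (0.47 ± 0.17, all SE), and Ndufb8 and Cox6a1 were among the members with no overlap. Between clodronate and PBS 45 of these 47 had a lower mean, where 6456 of all 15137 genes had a higher mean with clodronate.

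Fatty acid oxidation was mixed. It had 17 of 24 genes higher and a median of 0.12. Cpt2, which releases fatty acids for oxidation inside mitochondria (chromosome 4, 107903981 to 107923610), was at 55.9, 65.4, 64.4, 63.9, 71.0 and 58.4 CPM in the high mice. In the low mice it was at 42.9, 34.6, 39.1, 38.4, 45.8 and 44.9 CPM. The gap between the groups, from 45.8 to 55.9 CPM, was narrower than the spread within each of them, and the difference was 0.62 ± 0.12 (SE, adjusted p = 0.369 by limma). It was 0.55 among PBS mice alone. Cpt1a, the entry step on the outer membrane, had the other sign, at 13.2 to 27.5 CPM against 24.2 to 37.8 CPM (-0.47 ± 0.19, SE), and Acads, a short-chain dehydrogenase, was 0.39 ± 0.19 (SE) higher. Between clodronate and PBS Cpt2 differed by -0.47, Acads by -0.61 and Cpt1a by 0.16, none of them called.

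Of the genes higher in the high mice, Cpt2 and the following 4 had the lowest p-values. Slc25a10, which carries dicarboxylates across the mitochondrial membrane (chromosome 11, 120491840 to 120499187), was at 156, 171, 179, 114, 168 and 150 CPM in the high mice and at 104, 85.2, 77.6, 85.0, 111 and 68.8 CPM in the low mice. Hub PBS 1 lay just above the highest low mouse, and the difference was 0.82 ± 0.14 (SE). Gpd1, which makes glycerol 3-phosphate for triglyceride (chromosome 15, 99717515 to 99725005), was at 455 to 729 CPM against 210 to 384 CPM, a difference of 0.92 ± 0.17 (SE). Tecr, a reductase of long fatty acid synthesis (chromosome 8, 83571698 to 83607971), was at 169 to 210 CPM against 99.5 to 142 CPM (0.62 ± 0.12, SE). Agpat2, an acyltransferase of triglyceride assembly, was at 342 to 621 CPM against 168 to 407 CPM and overlapped through wheel PBS 2 and wheel PBS 4 (1.03 ± 0.20, SE). All of these had an adjusted p of 0.369 (limma). Among PBS mice alone the differences were 0.61, 0.62, 0.60 and 0.66 in that order, and between clodronate and PBS the 22 mice gave -0.75, -0.77, -0.32 and -0.95, none of them called. For Slc25a10, Gpd1 and Agpat2 the liposome difference was larger in size than the difference between high and low PBS mice, and for Tecr it was smaller. The liposome difference of Agpat2 was -0.95 ± 0.23 (SE, adjusted p = 0.0835 by limma).

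Of the genes lower in the high mice, Synpo2, an actin-binding protein of smooth and striated muscle, was at 7.59 to 18.8 CPM against 15.4 to 52.8 CPM (-1.34 ± 0.30, SE). Endou, an endoribonuclease, was at 1 to 5.61 CPM against 7.78 to 13.9 CPM with no overlap (-1.45 ± 0.32, SE). Casq2, the calcium store protein of heart and slow muscle, was at the floor in 5 high mice and at 1.22 CPM in the sixth, and at 1.79 to 4.35 CPM in the low mice. Its fitted difference of -0.80 ± 0.18 (SE) depends on the floor. Glb1l2, a galactosidase-like protein (-0.89 ± 0.23), and Id1, an inhibitor of differentiation factors (-0.62 ± 0.16, both SE), completed the lowest 5. Synpo2, Endou and Casq2 had an adjusted p of 0.470 and the other two 0.859 (limma). Of the 35 genes without overlap between the groups, Aldh1a7 and Ppp2r5a were also called between clodronate and PBS.

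Storage genes divided. Of lipid droplet and lipolysis genes 6 of 14 were higher, with a median of -0.05, from Gpd1 above and Plin2, a droplet coat protein (0.67 ± 0.25), to Plin4, another (-0.54 ± 0.23, both SE). Of fatty acid uptake and triglyceride assembly 7 of 14 were higher, with a median of -0.05. Fabp5, a fatty acid carrier, was at 102 to 217 CPM against 42.9 to 139 CPM (1.04 ± 0.26, SE), whereas Pck1, which makes glycerol backbone from pyruvate, was at 345 to 760 CPM against 649 to 1075 CPM (-0.72 ± 0.20, SE). General adipocyte markers were split 6 to 6 with a median of -0.03. Adipoq, the most fat-specific of them, was at 1052 to 2020 CPM against 1288 to 2221 CPM, and Lep, the satiety hormone leptin, at 63.5 to 111 CPM against 35.1 to 353 CPM. Slc2a4, the insulin-regulated glucose transporter, was at 98.8 to 148 CPM against 74.9 to 119 CPM (0.32 ± 0.15, SE). Between clodronate and PBS, Fabp5 differed by -0.75, Plin2 by -0.67, Slc2a4 by -0.51, Plin4 by -0.25 and Pck1 by 0.05, none of them called. The adipocyte score was 8.80 to 9.25 in the high mice and 8.71 to 9.52 in the low mice, so the groups overlapped by this measure, and with it as a covariate the median of the fatty acid synthesis list was 1.14.

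Beta-adrenergic and sympathetic genes were split 8 to 8 with a median of 0.01 and 0 of 16 at an unadjusted p under 0.05. Adra2a, an inhibitory adrenergic receptor, was at 1.02 to 5.50 CPM against 1 to 7.92 CPM. Crem, a repressor induced by cAMP, and Pde4d, which degrades cAMP, had differences of -0.32 ± 0.31 and -0.31 ± 0.31 (SE). Th, the first enzyme of noradrenaline synthesis, was above the floor in 1 mouse and Dbh, a later one, in 0.

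**Figure D4:**
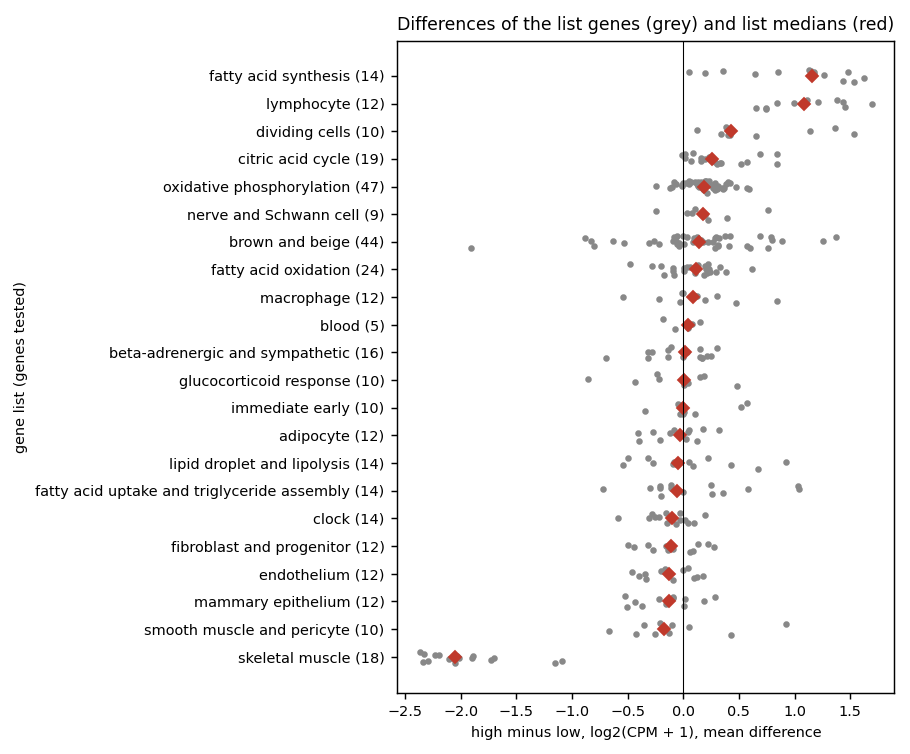
High minus low differences in log2(CPM + 1) of the genes of each list (grey points) and the median of each list (red diamonds), for 6 high and 6 low mice. Fatty acid synthesis (1.16) and lymphocyte genes (1.09) lie furthest to the right and skeletal muscle genes (-2.05) furthest to the left, and the other medians lie between -0.17 and 0.43.

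Other tissues in the pad differed between single mice. All 18 skeletal muscle genes had a lower mean in the high mice, with a median of -2.05. Of these, 3 of 18 had an unadjusted p under 0.05, against 2.44% of all genes lower at that p. Actn3, a fast-fibre protein, was at 1 to 12.3 CPM against 1 to 281 CPM. Mylpf, a myosin light chain, was at 1.82 to 17.97 CPM against 1.76 to 767 CPM, and Ckm, muscle creatine kinase, at 2.26 to 41.6 CPM against 1.38 to 1312 CPM. The muscle score was 3.42, 1.81, 3.57, 1.67, 3.85 and 3.68 in the high mice and 1.48, 4.36, 9.05, 7.14, 5.09 and 2.73 in the low mice. The highest were wheel clodronate 2 and hub PBS 3, and wheel PBS 4 was the lowest of the 12. With the muscle score as a covariate the median of the fatty acid synthesis list was 1.08, and the median of the muscle list was -1.24 without wheel clodronate 2 and -1.30 among PBS mice alone. The part of muscle content in the other differences was not tested further.

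All 12 lymphocyte genes had a higher mean in the high mice, with a median of 1.09, but 0 of 12 had an unadjusted p under 0.05. The score was 4.29 in hub PBS 2 and 4.67 in wheel PBS 3, 1.04 to 1.13 in the other 4 high mice and 1 to 1.31 in the low mice. Ms4a1, Cr2 and Cd79b, which mark B cells, reached 59.8, 40.3 and 46.5 CPM in the high mice and were at the floor in all low mice. Without these 2 mice the median of the fatty acid synthesis list was 1.10, and 7 of 14 genes had an unadjusted p under 0.05.

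**Figure D5:**
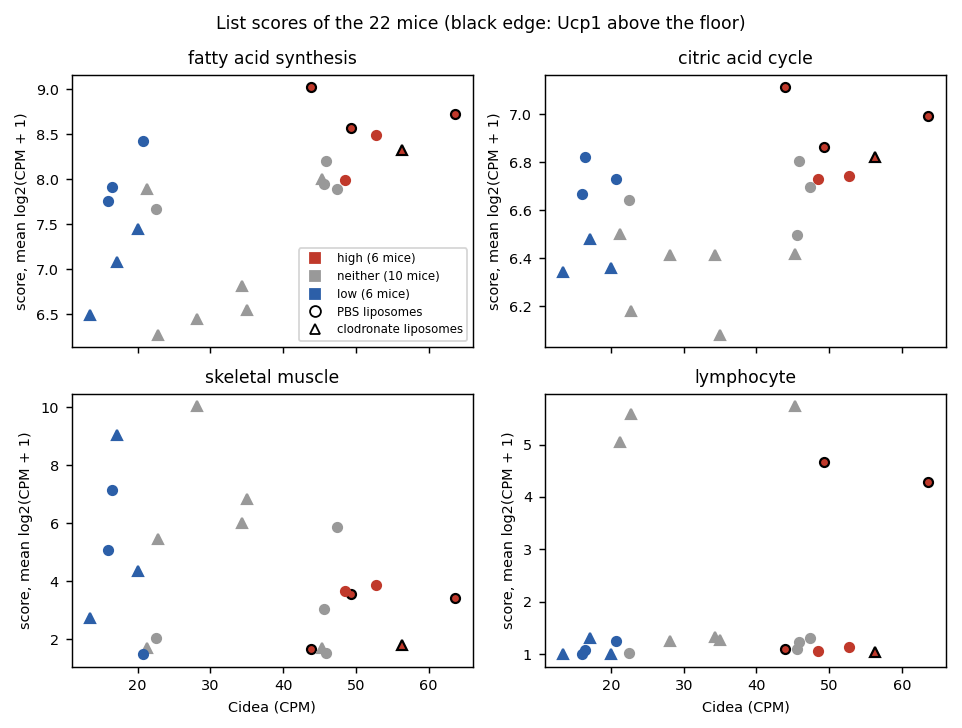
Score of 4 gene lists, the mean log2(CPM + 1) of their genes, against Cidea in CPM for each of the 22 mice, with high mice in red, low mice in blue, the others in grey, triangles for clodronate and a black edge for Ucp1 above the floor. Clodronate mice hold the lowest fatty acid synthesis scores, the high muscle scores lie among low and in-between mice, and 5 mice have lymphocyte scores above 4.

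Dividing cell genes were higher on average in 10 of 10, with a median of 0.43, and ranged widely in both groups. Top2a, an enzyme of DNA untangling, was at 16.99 to 118 CPM against 3.58 to 131 CPM, and Cenpf and Birc5, genes of mitosis, at 9.52 to 61.9 against 1.09 to 65.7 CPM and 7.27 to 42.1 against 1 to 47.3 CPM. Nerve and Schwann cell genes were higher in 8 of 9, with a median of 0.18. Pmp22, a myelin protein, was 0.39 ± 0.15 (SE) higher on average, and the difference of Mal was smaller than its error. Between clodronate and PBS the difference of Pmp22 was -0.67 ± 0.16 (SE, adjusted p = 0.0835 by limma). Macrophage genes were higher in 7 of 12, with a median of 0.09. Of these, Lyve1 and Mertk differed by 0.84 ± 0.41 and -0.54 ± 0.26, and Itgam, an integrin of myeloid cells, by 0.48 ± 0.34 (SE). Over the 22 mice Lyve1 was highest in wheel clodronate 3 (76.6 CPM), wheel clodronate 4 (57.7 CPM) and wheel clodronate 5 (51.0 CPM). Their lymphocyte scores were 5.57, 5.73 and 5.05.

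The remaining cell types differed little. Mammary epithelium was higher in 4 of 12 (median -0.13), and Krt5, Krt14 and Trp63, all of basal cells, varied at least 10-fold within each group. Endothelium was higher in 4 of 12 (median -0.13), with Aplnr, Esam and Cldn5 at -0.46, -0.40 and -0.34. Smooth muscle and pericyte genes were higher in 3 of 10 (median -0.17), but Cspg4, a pericyte proteoglycan, was at 41.2 to 74.4 CPM against 21.5 to 50.8 CPM (0.92 ± 0.21, SE). Cspg4 differed by -0.60 ± 0.21 (SE) between clodronate and PBS and was not called. Fibroblast and progenitor genes were higher in 5 of 12 (median -0.11), with Dpp4, Mfap5 and Dcn at -0.50, -0.45 and -0.32. Blood genes were higher in 3 of 5 (median 0.05), where Alas2, Hba-a2 and Hbb-bt were within their errors and the globins share reads with near-identical copies.

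Genes of state had small list medians, from -0.11 to 0.01. Clock genes were higher in 4 of 14 (median -0.11), and Per2, a repressor of the clock, was at 16.6 to 41.0 CPM against 28.4 to 45.7 CPM (-0.58 ± 0.22, SE). Clock and Cry2 differed by -0.31 and -0.28. Immediate early genes, which respond fast to handling or injury, were higher in 4 of 10 (median -0.01), with Ier2 at 0.58, Ier3 at 0.51 and Egr2 at -0.35. Glucocorticoid-responsive genes were higher in 6 of 10 (median 0.01). Zbtb16, a transcription factor induced by the hormone, was at 21.2 to 43.2 CPM against 26.8 to 74.4 CPM (-0.86 ± 0.24, SE), and Cdkn1a and Lcn2 differed by 0.48 ± 0.51 and -0.44 ± 0.39 (SE).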

How the data were processed

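RNA of 22 mammary fat pads was sequenced with QuantSeq 3′ FWD libraries. The authors deposited a signal per gene and mouse in CPM with values below 1 set to 1, mapped to GRCm38 with STAR 2.5.3a per the submitters' processing notes; the counting tool was not given in the sources used here. Groups came from the sample labels. The members of the compared groups and all gene lists were chosen with earlier results of these data known. Rows for unassigned reads were dropped (57.4% to 64.6% of reads were assigned to genes), repeated symbols kept the row with the highest mean, and depth was worked out from the step between values (13256467 to 20484578 reads, median 16293026). The 15137 genes other than Cidea that exceeded 1 CPM in 5 or more mice (Ucp1 did not) were tested on log2(CPM + 1) with limma 3.58.1 (eBayes with a variance trend) in R 4.3.3, in the 12 high and low mice, and for activity and liposome in 22 mice as 4 group means. Depth gives no counting interval for genes at the floor. Each mouse is 1 library.

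The genes named were the 5 with the lowest p in each direction, 10 fixed thermogenic genes where tested, and the 3 with the largest absolute difference in each other list, of which some are not reported here. Lists were brown and beige, beta-adrenergic and sympathetic, fatty acid oxidation, oxidative phosphorylation, citric acid cycle, fatty acid synthesis, lipid droplet and lipolysis, fatty acid uptake and triglyceride assembly, adipocyte, skeletal muscle, lymphocyte, mammary epithelium, macrophage, endothelium, smooth muscle and pericyte, fibroblast and progenitor, blood, nerve and Schwann cell, dividing cells, clock, immediate early and glucocorticoid response. Coordinates are from GENCODE M21. Near-identical copies were sought in the last 400 bases of transcripts at 97% identity over at least 50% of that length with BLAST 2.17.0. The fit was tested on simulated data. Alternatives were other pseudocounts, filters, scaling, variance model, covariates, group sizes and samples, a replicate block and leaving out each mouse.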

Additional observations from a re-analysis of the deposited data

Results flagged for a closer look

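Of 82 groups of 6 mice, over 41 measures, 2 held a mouse far from the other 5, where chance gives about 4.1. The clock score was 4.58 in wheel PBS 4, a low mouse, and 4.94 to 5.15 in the other 5 low mice. Casq2 was at 1.15 on the log2(CPM + 1) scale in hub PBS 2, a high mouse, which is 1.22 CPM, while the other 5 high mice were at the floor. No gene had an activity effect that differed between the liposomes by the interaction term in limma (0 at an adjusted p under 0.05, 1147 at an unadjusted p under 0.05).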

How the results depend on the processing

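No gene was called between the high and low mice, and none of the brown and beige list, under any alternative run (0 genes each, leave-one-out 0 to 0). The lowest adjusted p was 0.0508, with the replicate block, where 0 genes were called and 1235 had an unadjusted p under 0.05. That block used the order of the mice within their groups, and the labels give no pairing by it. Deviations of hub and wheel mice at the same place in this order correlated at -0.25 to 0.11 with PBS (6 pairs). With clodronate the correlations were -0.12 to 0.52 (5 pairs), and 4 of 22 mice correlated best with the mouse at their own place. Genes called by activity were 0 (leave-one-out 0 to 0) and 2 with no filter. Genes called by liposome were 31, 54 at a mean of at least 5 CPM, 18 with upper-quartile scaling, 20 without a variance trend, 11 with the replicate block, and 9 to 146 without 1 mouse. They were 146 without hub clodronate 1, 70 without hub PBS 4, 19 without wheel clodronate 2, 15 without hub PBS 3, 14 without hub PBS 1 or wheel clodronate 3, 12 without hub clodronate 2 and 9 without hub clodronate 3. Medians of lists ranged, without 1 mouse, from 0.93 to 1.35 (fatty acid synthesis), 0.12 to 0.19 (brown and beige) and -2.83 to -1.24 (skeletal muscle). The first was 0.53 among PBS mice alone and the last 0.049 with the muscle score as a covariate, which is made of the same genes. What caused these changes was not tested.

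Of 1494 values of the 79 genes named, 55 had the other sign and 0 were called, and of 948 values without 1 mouse 24 had the other sign, in genes whose ranges were Dio2 -0.00172 to 0.25, Cox7a1 -0.34 to 0.30, Adrb3 -0.0818 to 0.15, Plin5 -0.28 to 0.15, Alas2 -0.57 to 0.17, Hba-a2 -0.10 to 0.37 and Hbb-bt -0.20 to 0.37. The 55 were as follows. With muscle, lymphocyte and epithelium scores, the differences were Prdm16 -0.014, Cox7a1 0.83, Elovl3 0.40, Pde4d 0.0104, Ckm 0.0357, Cr2 -0.0428, Cd79b -0.0264, Krt5 0.75, Trp63 0.50, Krt14 0.74, Des 0.69, Dpp4 0.00221, Dcn 0.0406, Cry2 0.14 and Egr2 0.0306. Among PBS mice alone, the differences were Dio2 -0.0853, Adrb3 -0.31, Krt5 0.68, Trp63 0.14, Krt14 0.42 and Alas2 0.37. With a pseudocount of 0.1, the difference was Cox7a1 0.0106. Without a pseudocount, the difference was Cox7a1 0.0133. With the muscle score as a covariate, the differences were Cox7a1 0.67, Elovl3 0.24, Ckm 0.0214, Krt5 0.75, Trp63 0.16, Krt14 0.76, Des 0.65, Dpp4 0.0304, Hbb-bt -0.073 and Egr2 0.11. With the 8 highest against the 8 lowest, the differences were Cox7a1 0.40, Crem 0.0761 and Hbb-bt -0.000396. Between the 4 mice with Ucp1 above 1 CPM and the other 18, the differences were Cox7a1 0.14, Plin5 0.41, Alas2 0.51, Clock 0.0138 and Cdkn1a -0.30. With the replicate block, the differences were Adrb3 -0.0497, Plin5 0.16, Hba-a2 -0.22 and Hbb-bt -0.29. With activity and liposome as covariates, the differences were Adrb3 -0.0347 and Alas2 0.33. With the 4 highest against the 4 lowest, the differences were Adrb3 -0.15, Plin5 0.34, Crem 0.0774 and Alas2 0.55. With a pseudocount of 5, the difference was Plin5 0.00134. With the lymphocyte score as a covariate, the differences were Plin5 0.0251 and Cldn5 0.00588. Without the 2 lymphocyte-rich mice, the difference was Plin5 0.0463. The 4 against 18 mice, the fit without the 2 lymphocyte-rich mice, the PBS fit and the list medians were added after seeing the data. So was a slope on Cidea over the 10 mice in neither group. For the brown and beige list that slope was positive in 21 of 44 genes, with a median of -0.025, and 0 were called. Count models and TMM scaling were not run, since the reads of genes at the floor are lost, nor was a slope on Ucp1 in the 10 mice between, where it is at the floor. Changes between levels below the floor, which hides up to 13 to 20 reads depending on the mouse, were not detectable.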
